A study of Homo sapiens with 40 samples.

Results

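The genes described here are 43 antiviral effectors that interferon is known to switch on: the ISG15 conjugation system, MX and guanylate-binding GTPases, IFITM proteins and tetherin, enzymes that act on nucleotides and RNA, the IFI genes, interferon-induced PARPs, nuclear body and TRIM proteins, and 8 further effectors. They were chosen by name, as genes long known to respond to interferon, but with earlier results of these data known. Each was read from its brightest probe. A probe was found for 35 of the 43, among 18353 genes with a probe and 10585 genes bright enough to test. HERC5, HERC6, TRIM25, DDX60L, DTX3L, TRIM22, SAMD9 and SAMD9L were not analysed here.

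Type I and type III interferons bind receptors at the cell surface, which activate the kinases JAK1 and TYK2. The signal reaches transcription factors, IRF9 among them, that bind interferon-stimulated response elements (ISREs) in the promoters of the effector genes. The effectors then act at separate steps of viral growth, from membrane fusion to RNA decay and the release of particles. Epithelial cells of the lung respond to both interferon types, and the IFNL genes encode the type III interferons that act mainly on such cells.

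The cells were A549, an established human lung carcinoma line with epithelial origin, transfected with siRNA against CCAR1 (siCCAR1), CoCoA (siCoCoA, gene CALCOCO1), CCAR2 (siCCAR2) or ZNF282 (siZNF282), or with nonspecific siRNA (siNS). All 4 targets are coregulators of the glucocorticoid receptor. After transfer to hormone-free medium, every culture received 100 nM dexamethasone (dex), a synthetic glucocorticoid, or ethanol, the vehicle, for 6 h. The titles of the ethanol arrays carry 0 h, and they were taken as the ethanol controls of the protocol. siCCAR1, siCoCoA and siCCAR2 held 4 arrays in dex and 4 in ethanol, siZNF282 held 2 and 2 (numbered 2 and 3), and siNS held 6 and 6. All groups had been transfected, and cells without siRNA were not analysed here. The titles name no second siRNA for any target, so an effect of the siRNA itself cannot be told apart from loss of its target. Depletion here names the siRNA that a group received.

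The values were log2 intensities of 40 Illumina arrays, with array medians of 4.67 to 4.69 and correlations between arrays of 0.948 to 0.993. Each target transcript was called lower in its own depletion, with log2 differences between -0.44 (CALCOCO1 in siCoCoA ethanol cells) and -2.31 (CCAR2 in siCCAR2 ethanol cells). CCAR2 was also lower in siCoCoA cells, by -1.10 in dex and -0.96 in ethanol. The epithelial keratin KRT8 had group means of 11.2 to 12.9, whereas the leukocyte marker PTPRC and the endothelial marker CDH5 stayed at 4.30 to 4.55, near background. TEK, another endothelial marker, had 5.07 in siZNF282 ethanol cells against 4.48 in siNS ethanol cells. The fibroblast marker DCN had 4.52 against 4.42 in these groups. Other markers of these cell types are not given here. A value below 5 is called near background here, because that line was used to choose the genes tested. How many cells expressed a gene and how much RNA each cell held cannot be told apart in such bulk samples. The labels do not say whether arrays of a group came from separate cultures, so a p-value here weighs a difference against array-to-array spread, which may be technical. Precision is limited by how many arrays a group held.

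The promoters of the 4 members with the largest mean difference and of the member with the smallest are shown, with matches to the motif that these factors read. GBP2, which had the next smallest, has no promoter entry and is not shown. Each line gives 150 bases before to 30 bases after the annotated start, on the plus strand, with matches to the ISRE letters (GAAA, 2 bases of any kind, GAAA) or to the interferon-gamma-activated site motif TTCNNNGAA (GAS), on either strand, in capitals. IFI27 lies at chr14:94110586-94110765, ISG15 at chr1:1013347-1013526, MX1 at chr21:41420408-41420587, IFITM1 at chr11:313890-314069 and RTP4 at chr3:187368235-187368414 of GRCh38.p14 (RefSeq). The first 4 had the largest mean difference over the 8 comparisons of a depletion with siNS, and RTP4, near background in siNS cells, was called in 3 of them.
IFI27: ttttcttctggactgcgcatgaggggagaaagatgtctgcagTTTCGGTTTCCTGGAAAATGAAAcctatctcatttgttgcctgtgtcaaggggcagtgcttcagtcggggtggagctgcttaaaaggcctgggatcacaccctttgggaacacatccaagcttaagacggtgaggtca
ISG15: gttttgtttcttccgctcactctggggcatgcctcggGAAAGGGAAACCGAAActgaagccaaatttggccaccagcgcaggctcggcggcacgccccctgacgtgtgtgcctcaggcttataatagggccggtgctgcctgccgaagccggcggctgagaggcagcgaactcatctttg
MX1: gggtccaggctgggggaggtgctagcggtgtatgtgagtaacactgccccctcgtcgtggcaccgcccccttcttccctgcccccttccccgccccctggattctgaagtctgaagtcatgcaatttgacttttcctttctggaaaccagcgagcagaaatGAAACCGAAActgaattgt
IFITM1: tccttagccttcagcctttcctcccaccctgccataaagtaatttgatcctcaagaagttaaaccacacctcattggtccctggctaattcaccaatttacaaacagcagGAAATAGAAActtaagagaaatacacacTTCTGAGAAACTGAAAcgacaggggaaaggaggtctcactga
RTP4: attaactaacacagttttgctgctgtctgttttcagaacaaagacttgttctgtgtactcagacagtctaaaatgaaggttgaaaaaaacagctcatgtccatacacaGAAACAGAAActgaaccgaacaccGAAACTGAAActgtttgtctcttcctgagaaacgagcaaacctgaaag
In ISG15 the 2 ISRE matches overlap, and in IFI27 and IFITM1 a GAS match overlaps an ISRE match. IFI27 has 2 annotated starts and MX1 has 3. The first start with an ISRE match was taken, which was the first listed for each. The ISRE letters occurred in the window of 300 bases (250 before to 50 after a start) of 25 of the 36 members with a RefSeq window, or 69.4%, against 1195 of 27305 genes, or 4.38%. GAS letters occurred in 10 of the 36 members (27.8%), against 9.38% of all genes. A match is a description of the letters and does not show binding. RTP4 holds 2 ISRE matches, as do IFI27, ISG15 and IFITM1.

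Levels of these genes were higher after siRNA against each coregulator, and the question was which of them rose and how far. In siZNF282 cells all 35 members with a probe rose in dex and all 35 in ethanol. In siCoCoA cells 35 rose in dex and 34 in ethanol, and in siCCAR2 cells 33 rose in each. In siCCAR1 cells 26 rose in dex and 20 in ethanol. No member fell in any of the 8. A gene was counted as risen where the limma test gave a Benjamini-Hochberg adjusted p below 0.05 over the 10585 genes, and 20 of the 35 members met that in all 8 comparisons, which share the siNS arrays. Rises over all genes tested were rarer, though the members were chosen with earlier results of these data known. In dex, 15.5% of all genes rose in siZNF282 cells, 11% in siCoCoA cells, 10.6% in siCCAR2 cells and 10.1% in siCCAR1 cells. In ethanol the shares were 14.4% in siZNF282 cells, 8.46% in siCoCoA cells, 7.27% in siCCAR2 cells and 7.33% in siCCAR1 cells. The median log2 difference over the 35 members was 3.81 in siZNF282, 2.84 in siCoCoA, 2.41 in siCCAR2 and 1.46 in siCCAR1 cells in dex. In ethanol it was 4.41, 2.22, 2.43 and 0.93 in the same order of depletions. For 9 members every siNS ethanol array lay below 5, and with their siNS level set to 5 the medians were 4.39, 2.21, 2.32 and 0.90.

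Falls, of which the members had none, made up 15% of all genes in siZNF282, 9.08% in siCoCoA, 8.4% in siCCAR2 and 8.91% in siCCAR1 dex cells, and 17.1%, 7.07%, 8.97% and 6.52% in ethanol. Medians over all genes lay between -0.077 and 0.023 in the 8 comparisons.

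Of the 35 members, 7 (MX2, BST2, RSAD2, CMPK2, PARP10, LAMP3 and RTP4) were bright enough to test only through depleted groups, so they had to be higher in at least 1 of these. Among the 28 that lay above 5 in siNS cells, 28, 28, 27 and 22 rose in siZNF282, siCoCoA, siCCAR2 and siCCAR1 dex cells. In ethanol 28, 28, 27 and 20 of them rose in the same order. Every array of the depleted group lay above every siNS array for 28, 28, 26 and 23 of the 28 in dex and 28, 28, 27 and 19 in ethanol, again in the same order. Over all members it did so for 35 in siZNF282 cells in either treatment, against 18.8% of all genes in dex and 17.0% in ethanol. The same held for 34 and 34 members in siCoCoA cells in dex and ethanol (7.88% and 7.58% of all genes), for 32 and 33 in siCCAR2 cells (7.11% and 5.56%), and for 26 and 20 in siCCAR1 cells (7.84% and 8.73%).

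**Figure D1:**
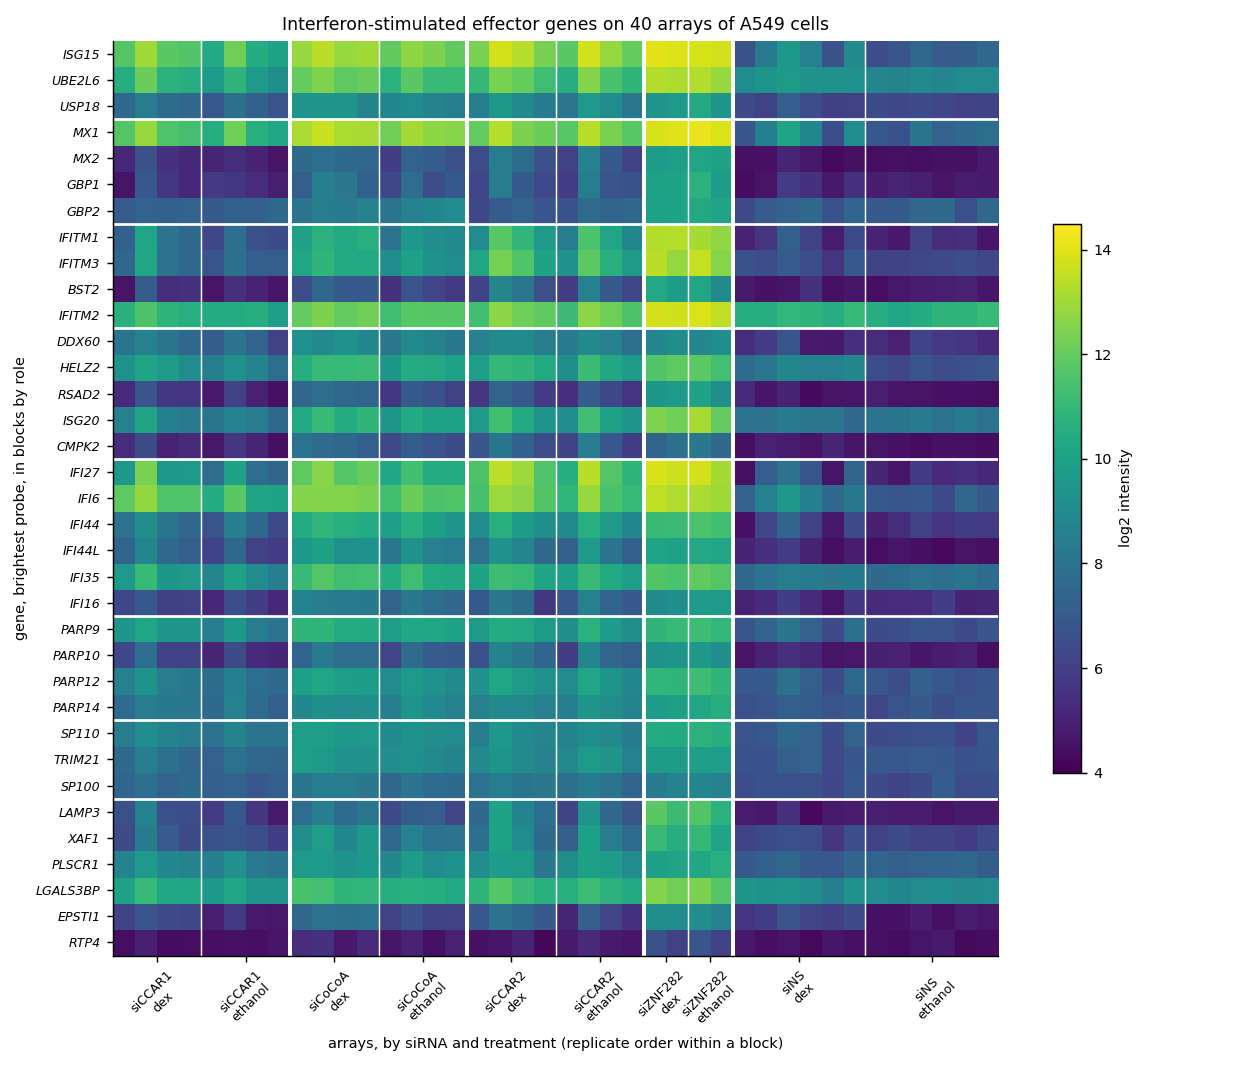
Log2 intensity of the 35 members (rows, in blocks by role) on each of the 40 arrays (columns, grouped by siRNA, with dex left of ethanol). The siZNF282 arrays are the brightest for most rows, the siNS arrays the dimmest, and the siCCAR1 arrays lie closest to siNS.

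ISG15 encodes a ubiquitin-like protein that is attached to other proteins and also secreted. In siZNF282 cells it had 14.05 and 13.93 in dex and 13.86 and 13.78 in ethanol. siCoCoA dex arrays had 12.86, 13.43, 12.90 and 13.02, and siCCAR2 dex arrays 12.38, 13.80, 13.35 and 12.35. siCCAR1 dex arrays had 11.68, 13, 11.80 and 11.67, against a lowest value of 6.59, a median of 8.46 and a highest of 9.58 on siNS dex arrays. All depleted arrays in dex thus lay more than 2 log2 units above the highest siNS dex array, and the siZNF282 arrays lay above those of the 3 other depletions, which overlapped.

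In ethanol ISG15 had 11.94, 12.78, 12.43 and 11.92 on siCoCoA arrays, 11.83, 13.77, 12.83 and 12.03 on siCCAR2 arrays and 10.43, 12.22, 10.51 and 10.08 on siCCAR1 arrays. siNS ethanol arrays ran lower than any of these, from 6.49 through a median of 7.06 to 7.58. The difference from siNS in ethanol was 6.74 ± 0.57 (SE) in siZNF282, 5.19 ± 0.45 in siCoCoA, 5.54 ± 0.45 in siCCAR2 and 3.73 ± 0.45 in siCCAR1 cells (limma, adjusted p = 1.58e-11, 9.92e-11, 1.43e-11 and 2.26e-07). These are 107-fold, 36.4-fold, 46.4-fold and 13.3-fold. The highest ISG15 value stood near the top of the scale, which ended at 14.3, and 0.0736% of all probe values were higher. Whether the scale was compressed there was not tested. The other 2 genes of the conjugation system with a probe rose in all 8 comparisons too. USP18, which removes ISG15 and restrains the interferon receptor, was higher by 3.21 and 3.64 in siZNF282 cells in dex and ethanol and by 1.46 and 0.90 in siCCAR1 cells. UBE2L6, the conjugating enzyme, was higher by 3.85 and 4.17 in siZNF282 and by 1.61 and 0.93 in siCCAR1 cells.

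MX1, a dynamin-like GTPase that traps viral ribonucleoproteins, had 13.85 and 13.97 in dex and 14.18 and 13.92 in ethanol in siZNF282 cells. In siCoCoA dex cells it had 13.16, 13.64, 13.19 and 13.13, in siCCAR2 dex cells 11.97, 13.33, 12.44 and 12.16, and in siCCAR1 dex cells 11.68, 12.86, 11.60 and 11.40. siNS dex arrays spread widely, from 6.51 through a median of 8.67 to 10.13. Even so, the lowest depleted array was above the highest siNS array. In ethanol, siNS arrays ran from 6.65 to 8.03 with a median of 7.45, below the means of 12.65, 12.33 and 10.86 in siCoCoA, siCCAR2 and siCCAR1 cells. MX1 was 48.2-fold higher in siZNF282 dex cells (95% confidence interval 21.1 to 110) and 11.8-fold higher in siCCAR1 dex cells (6.18 to 22.7). MX2, its nuclear relative that acts on retroviruses, lay below 5 on all siNS ethanol arrays and was at least 34.5-fold higher in siZNF282 ethanol cells, taking 5 as the level of siNS. Folds are given as such bounds wherever every siNS array lay below 5.

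Guanylate-binding proteins are GTPases that attack the membranes of intracellular pathogens. GBP1 rose by 5.01 and 5.46 in siZNF282 cells in dex and ethanol and by 2.70 and 2.05 in siCoCoA cells, while its differences of 0.51 and 0.60 in siCCAR1 cells did not pass the test. GBP2 had 10.01 and 10.09 in siZNF282 dex cells and 8.08, 8.42, 8.34 and 8.67 in siCoCoA dex cells. Its siCCAR2 dex arrays had 6.26, 7.04, 7.36 and 6.81, and its siCCAR1 dex arrays 7.0, 7.29, 7.27 and 7.29, against 6.30 to 7.57 with a median of 7.17 on siNS dex arrays. The siZNF282 and siCoCoA arrays thus lay above siNS, the siCCAR1 arrays within its range, and the siCCAR2 arrays within it but for 1 just below. GBP2 rose by 3.00 ± 0.29 in siZNF282 and 1.32 ± 0.23 in siCoCoA dex cells (limma, adjusted p = 4.37e-10 and 5.29e-05), and its differences of -0.19 and 0.16 in siCCAR2 and siCCAR1 dex cells had adjusted p = 0.638 and 0.690. In ethanol the 4 differences were 3.06, 1.47, 0.12 and 0.05, with the last 2 again not called. GBP2 and RTP4 were the 2 members that did not pass in siCCAR2 cells.

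IFITM1, which blocks the fusion of viral with cell membranes at the plasma membrane, had 13.29 and 13.33 in siZNF282 dex cells and 10.02, 10.77, 10.36 and 10.60 in siCoCoA dex cells. siCCAR2 dex arrays had 9.06, 11.76, 10.92 and 9.69, and siCCAR1 dex arrays 7.28, 10.18, 7.98 and 7.54, against 4.80 to 7.19 with a median of 5.83 on siNS dex arrays. The siCCAR1 array numbered 2 was high among its group, and the lowest siCCAR1 array barely cleared the highest siNS array. IFITM1 was 177-fold, 24.3-fold, 23.0-fold and 5.31-fold higher in siZNF282, siCoCoA, siCCAR2 and siCCAR1 dex cells (limma, adjusted p = 7.07e-11, 2.89e-08, 4.33e-08 and 1.09e-03). In ethanol it was 212-fold, 13.2-fold, 23.7-fold and 2.98-fold higher (adjusted p = 2.76e-11, 2.94e-06, 4.02e-08 and 0.0419). IFITM3, which acts in endosomes, followed at 6.60, 3.96, 4.55 and 1.75 log2 units in dex.

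IFITM2 was bright without depletion. It had 13.83 and 13.76 in siZNF282, a mean of 12.14 ± 0.21 (SD, n = 4) in siCoCoA, 12.03 ± 0.57 in siCCAR2 and 10.91 ± 0.45 in siCCAR1 dex cells, against 10.74 ± 0.22 (n = 6) in siNS dex cells. It rose by 3.06, 1.40 and 1.30 in siZNF282, siCoCoA and siCCAR2 dex cells and did not pass in siCCAR1 cells (0.17 in dex and -0.34 in ethanol). The sequences of IFITM transcripts are similar, and whether a probe also read its neighbours was not tested. BST2, or tetherin, holds budding virions at the cell surface. It had 10.33 and 9.81 in siZNF282 dex cells, and its siNS dex arrays ran from 4.48 to 5.50 with a median of 4.6. In siCCAR1 dex cells BST2 had 4.56, 7.11, 5.37 and 5.51, with array 2 far above the other arrays, and the difference of 0.90 did not pass (limma, adjusted p = 0.157).

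**Figure D2:**
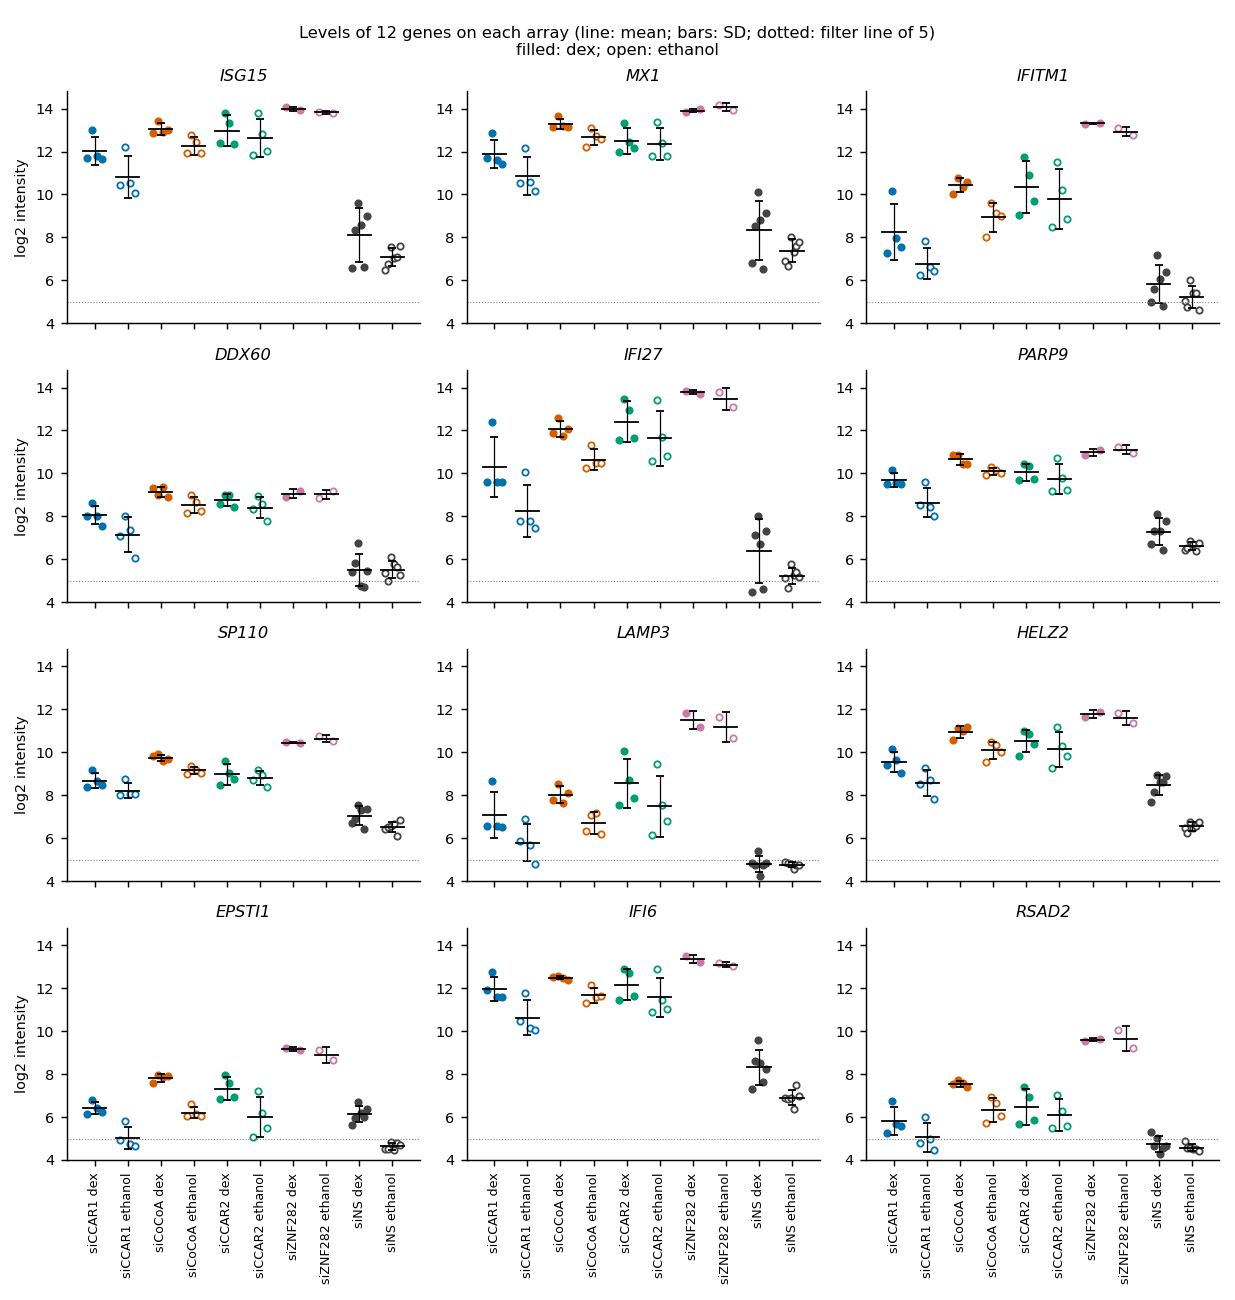
Log2 intensity of 12 members on every array, with 1 panel per gene, dex left of ethanol within each siRNA, siNS at the right, group means as lines, SD as bars and a dotted line at 5. The siZNF282 arrays are the highest in most panels and siNS the lowest. The array numbered 2 lies above the others in most siCCAR1 and siCCAR2 groups.

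Among enzymes that act on nucleotides and RNA, DDX60, a helicase linked to RNA sensing and decay, rose in all 8 comparisons. It had 8.92 and 9.19 in siZNF282 dex cells, 9.32, 8.98, 9.36 and 8.92 in siCoCoA, 8.59, 8.98, 8.99 and 8.42 in siCCAR2 cells and 8.02, 8.60, 8.03 and 7.54 in siCCAR1 dex cells. siNS dex arrays had 4.72 to 6.73 with a median of 5.43. The first 3 depletions overlapped, and all 4 lay above siNS. The differences in dex were 3.58 ± 0.39, 3.67 ± 0.31, 3.27 ± 0.31 and 2.57 ± 0.31 in siZNF282, siCoCoA, siCCAR2 and siCCAR1 cells (limma, adjusted p = 3.71e-09, 1.84e-11, 3.66e-10 and 1.14e-07).

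RSAD2, or viperin, makes a nucleotide that ends viral RNA chains. It had 9.54 and 9.64 in siZNF282 dex cells and 7.53, 7.73, 7.57 and 7.38 in siCoCoA dex cells. siCCAR2 dex arrays had 5.67, 7.38, 6.93 and 5.86 and siCCAR1 dex arrays 5.23, 6.76, 5.69 and 5.59, against 4.29 to 5.29 with a median of 4.65 on siNS dex arrays. One siCCAR1 array lay just under the highest siNS array, and the others lay above it. In ethanol every siNS array was below 5, and RSAD2 was at least 25.1-fold higher in siZNF282, at least 2.52-fold in siCoCoA and at least 2.13-fold in siCCAR2 cells. Its difference in siCCAR1 ethanol cells did not pass (limma, adjusted p = 0.345). CMPK2, a mitochondrial nucleotide kinase encoded beside RSAD2, was at least 7.57-fold higher in siZNF282 ethanol cells. ISG20, an exonuclease for single-stranded RNA, rose by 4.32 and 4.44 in siZNF282 cells in dex and ethanol, and its differences of 0.90 and 0.05 in siCCAR1 cells did not pass. HELZ2, a helicase and nuclear receptor coactivator, is described with the dex response.

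The 6 IFI genes had median differences of 5.02, 4.33, 3.55 and 2.47 in siZNF282, siCoCoA, siCCAR2 and siCCAR1 dex cells and of 5.80, 4.28, 3.77 and 1.81 in ethanol. All 6 rose in every comparison but 1, siCCAR1 in ethanol, where 5 rose and IFI16, a DNA sensor, did not (0.38). IFI27, a small mitochondrial and nuclear membrane protein, had the largest mean difference of the members over the 8 comparisons. In dex it had 13.86 and 13.71 in siZNF282, 11.88, 12.58, 11.74 and 12.06 in siCoCoA, 11.57, 13.47, 12.96 and 11.63 in siCCAR2 cells and 9.62, 12.39, 9.59 and 9.62 in siCCAR1 cells. siNS dex arrays spread from 4.46 through a median of 6.92 to 8.01. In ethanol IFI27 had 13.81 and 13.10 in siZNF282, 10.24, 11.33, 10.48 and 10.48 in siCoCoA, 10.56, 13.42, 11.71 and 10.82 in siCCAR2 cells and 7.76, 10.07, 7.79 and 7.44 in siCCAR1 cells, and 4.64 to 5.79 with a median of 5.20 in siNS cells.

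No depleted array of IFI27 reached down to siNS in the same treatment, and in siCCAR1 cells the array numbered 2 stood more than 2 log2 units above the others. The fold over siNS in ethanol was 299 in siZNF282 (95% interval 102 to 876), 42.2 in siCoCoA (18.1 to 98.8), 84.2 in siCCAR2 (36 to 197) and 8.17 in siCCAR1 cells (3.49 to 19.1). The limma adjusted p-values were 1.18e-10, 2.26e-08, 4.16e-10 and 5.09e-04. IFI6, which protects infected cells at the endoplasmic reticulum and mitochondria, had 13.49 and 13.24 in siZNF282 dex cells against 7.31 to 9.60 with a median of 8.38 in siNS dex cells. IFI6 rose by 5.05, 4.19, 3.86 and 3.66 in siZNF282, siCoCoA, siCCAR2 and siCCAR1 dex cells, so its siCCAR1 value lay close to that in siCCAR2 cells. IFI44L was at least 38.1-fold, 12.6-fold, 8.32-fold and 2.62-fold higher in the 4 depletions in ethanol, in the same order. A second IFI44L probe was also below 5 on every siNS ethanol array. Its bounds in ethanol were 2.42-fold, 1.82-fold, 1.87-fold and 1.17-fold in siZNF282, siCoCoA, siCCAR2 and siCCAR1 cells. Its log2 difference in siZNF282 ethanol cells was 1.68, against 5.81 at the brightest probe. The size of the IFI44L rise thus depends on the probe.

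PARP9 works with DTX3L in ADP-ribosylation. In dex it had 10.87 and 11.09 in siZNF282, 10.85, 10.86, 10.46 and 10.42 in siCoCoA, 9.71, 10.45, 10.35 and 9.72 in siCCAR2 cells and 9.49, 10.17, 9.54 and 9.5 in siCCAR1 cells, against 6.40 to 8.09 with a median of 7.32 in siNS cells. Every depleted array was above every siNS array. The rises in dex were 3.71 ± 0.35, 3.37 ± 0.28, 2.78 ± 0.28 and 2.40 ± 0.28 (limma, adjusted p = 1.81e-10, 1.31e-11, 1.33e-09 and 6.15e-08). PARP12, which moves to stress granules and inhibits translation, and PARP14, a large macrodomain protein, rose in all 8 comparisons, by 1.10 in siCCAR1 ethanol cells at the low end and by 4.24 (PARP12) and 3.68 (PARP14) in siZNF282 ethanol cells. PARP10 was at least 20.8-fold higher in siZNF282 ethanol cells, and it was not called in siCCAR1 ethanol cells, where its mean was 5.48 (limma, adjusted p = 0.256).

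SP110, a nuclear body protein with a bromodomain, had 10.47 and 10.43 in siZNF282, 9.83, 9.90, 9.59 and 9.68 in siCoCoA, 8.47, 9.60, 9.04 and 8.76 in siCCAR2 cells and 8.39, 9.16, 8.68 and 8.46 in siCCAR1 dex cells, against 6.42 to 7.56 with a median of 7.09 in siNS dex cells. The siCCAR2 and siCCAR1 arrays overlapped, and all depleted arrays lay above siNS. It rose by 3.41 ± 0.25, 2.72 ± 0.20, 1.93 ± 0.20 and 1.64 ± 0.20 (limma, adjusted p = 1.75e-12, 1.69e-12, 3.78e-09 and 2.45e-07). SP100, its partner in nuclear bodies, and TRIM21, a cytosolic antibody receptor, also rose in all 8 comparisons. At its brightest probe SP100 had the smaller range, 1.90 and 2.23 in siZNF282 cells in dex and ethanol and 0.97 and 0.64 in siCCAR1 cells. A second SP100 probe was higher by 2.74 in siZNF282 and 0.94 in siCCAR1 dex cells. That probe lay below 5 on every siNS ethanol array and was at least 7.20-fold higher in siZNF282 ethanol cells. The smaller range thus depends on the probe.

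LAMP3, a lysosomal membrane protein, had 11.82 and 11.20 in siZNF282, 7.80, 8.53, 7.65 and 8.11 in siCoCoA, 7.55, 10.07, 8.72 and 7.85 in siCCAR2 cells and 6.58, 8.68, 6.56 and 6.50 in siCCAR1 dex cells, against 4.25 to 5.42 with a median of 4.79 in siNS dex cells. The siZNF282 arrays stood clear of all others, and the 3 other depletions overlapped. In ethanol, where siNS lay below 5 on every array, LAMP3 was at least 72.3-fold higher in siZNF282, 5.58-fold in siCCAR2 and 3.24-fold in siCoCoA cells. Without siCCAR2 ethanol array 2 the bound in siCCAR2 cells was 3.55-fold. A second LAMP3 probe differed by 4.07, 1.20 and 0.77 log2 units in siZNF282, siCCAR2 and siCoCoA ethanol cells. These lie under the bounds of 6.18, 2.48 and 1.70 log2 units from the brightest. The bounds thus hold for the brightest probe only. PLSCR1, a phospholipid scramblase with antiviral action, and LGALS3BP, a secreted glycoprotein, rose in all 8 comparisons, by 2.87 and 3.13 in siZNF282 dex cells and 1.83 and 1.16 in siCCAR1 dex cells. XAF1, a pro-apoptotic protein, rose by 4.52 in siZNF282, 3.09 in siCoCoA and 2.35 in siCCAR2 dex cells, and its 0.76 in siCCAR1 dex cells did not pass. RTP4, a chaperone of receptor transport, was near background in most groups. It had 6.60 and 6.05 in siZNF282 dex cells and stayed at or below 5.56 on every array of the other siRNAs. RTP4 was called higher in siZNF282 cells in both treatments and in siCoCoA cells in dex. Only these 3 groups had means above 5, so it was tested only through them and the filter favoured these calls. With siNS below 5 on every array, these rises in dex were at least 2.51-fold and 1.17-fold.

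The order of the 4 depletions was similar from member to member. Averaged over both treatments, siZNF282 had the largest difference in all 35 members (27.6% of all genes) and siCCAR1 the smallest in 34 (24.4% of all genes). Both held in 34 members, against 12.7% of all genes. siCoCoA came second and siCCAR2 next in 24 members, siCCAR2 second and siCoCoA next in 10, and in GBP2 siCCAR2 came last. In dex siCoCoA came second with siCCAR2 next in 29 members and the 2 changed places in 4, while in ethanol siCCAR2 came second in 21 and siCoCoA in 14. Among the 28 members above 5 in siNS cells, siZNF282 came first in 28 and siCCAR1 last in 27, with siCoCoA second in 20 and siCCAR2 second in 7. That the place of these 2 depends on treatment was not tested. DDX60 in dex was the member in which siCoCoA came first.

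**Figure D3:**
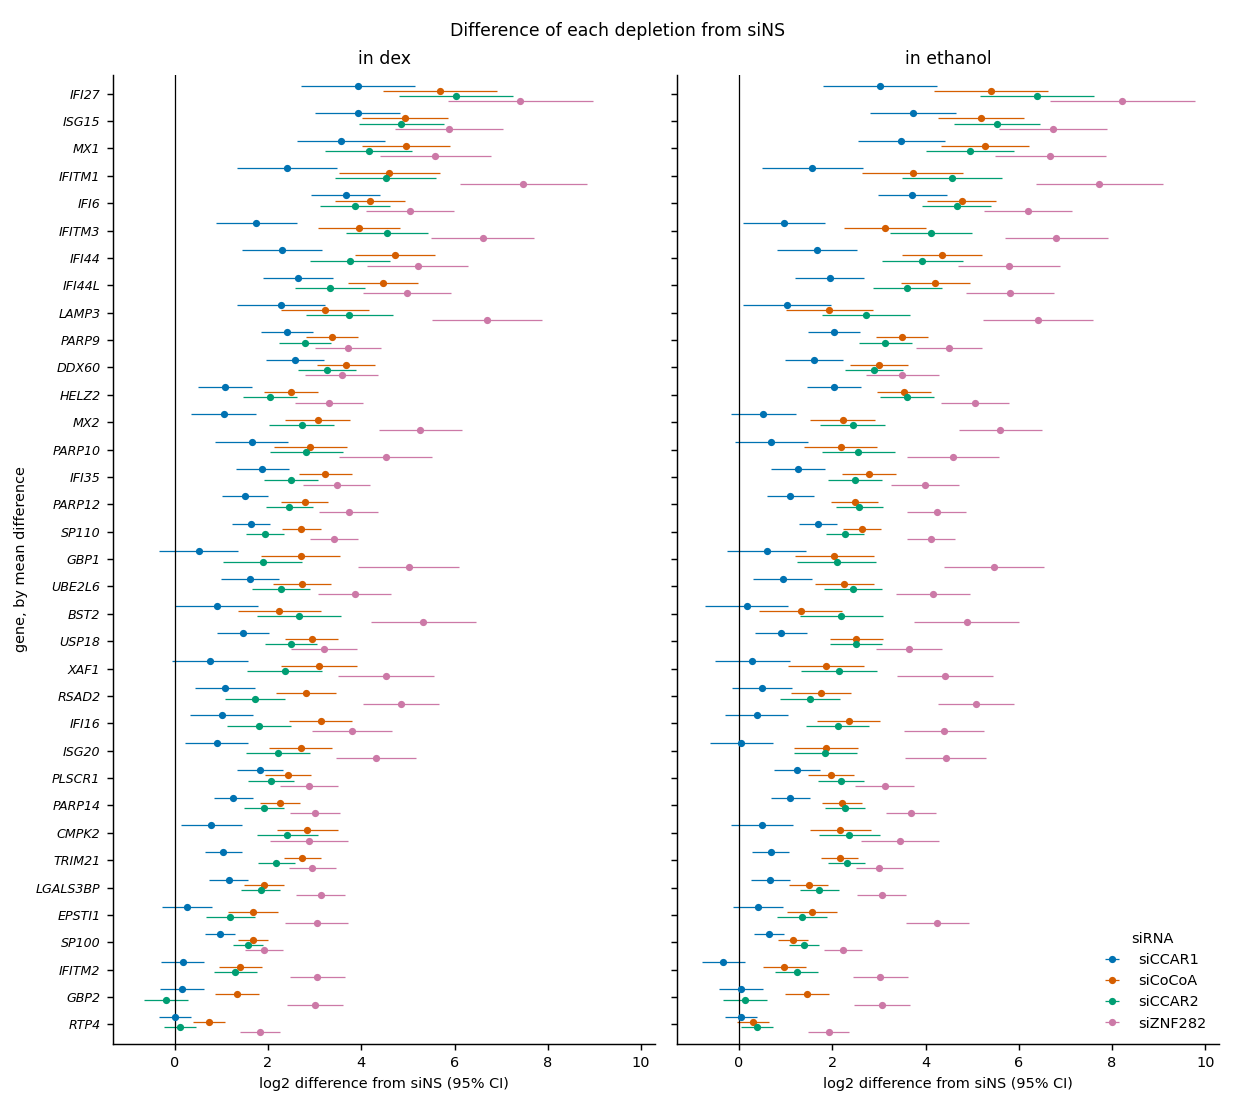
Log2 difference from siNS of each member in siZNF282, siCoCoA, siCCAR2 and siCCAR1 cells, in dex and in ethanol, with 95% confidence intervals as bars. siZNF282 lies at the high end and siCCAR1 at the low end for almost every member, while siCoCoA and siCCAR2 overlap. All 4 differences share the same siNS arrays.

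Tests between depletions, averaged over both treatments, do not use the siNS means. All 35 members were higher in siCoCoA than in siCCAR1 cells (18.4% of all genes, median 1.37), for example IFITM1 by 2.17 ± 0.41 (limma, adjusted p = 6.31e-05), IFI27 by 2.06 ± 0.47 (5.92e-04) and ISG15 by 1.23 ± 0.35 (0.00499). In siCoCoA against siZNF282 cells 31 were lower (16.8% of all genes, median -1.36), among them LAMP3 by -3.98 ± 0.44 (4.74e-09) and IFITM1 by -3.44 ± 0.50 (1.14e-06). The 4 that did not pass were MX1 (-1.02), CMPK2 (-0.66), IFI44 (-0.96) and DDX60 (-0.20, 95% interval -0.79 to 0.39).

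In siCCAR1 against siCCAR2 cells 32 members were lower (18.1% of all genes, median -1.26), with GBP2 (0.14), IFI6 (-0.57) and RTP4, near background in both, not called. In siCCAR1 against siZNF282 cells all 35 were lower (20.4% of all genes, median -2.74), and in siCCAR2 against siZNF282 cells 34 were (19%, median -1.65), with DDX60 (-0.46) not called. Between siCoCoA and siCCAR2 cells 5 members were higher in siCoCoA (18.8% of all genes) and none lower (16.7%), a share of the members near the background. These were GBP2 (1.43 ± 0.18, adjusted p = 6.24e-08), IFI44L (0.87), IFI16 (0.78), RSAD2 (0.67) and SP110 (0.57). Among the rest, ISG15 differed by -0.13 (95% interval -0.84 to 0.58), IFI27 by -0.67 (-1.62 to 0.28) and MX1 by 0.56 (-0.16 to 1.29), intervals that include 0 but do not show equality. The count of 5 became 10 without siCCAR2 ethanol array 2. Same-numbered arrays of these 2 depletions deviated together in all 4 pairs in dex and 3 of 4 in ethanol. With the replicate number as a block, 8 members were higher in siCoCoA cells (21.3% of all genes) and 3 lower (19.2%). The 3 were IFITM3 (-0.79), BST2 (-0.64) and LAMP3 (-0.65). The counts over 35 members include those tested only through depleted groups. Among the 28 members above 5 in siNS cells, without the block, 28 were higher in siCoCoA than in siCCAR1 cells. Of these members 25, 28 and 27 were lower in siCoCoA, siCCAR1 and siCCAR2 than in siZNF282 cells. In siCCAR1 against siCCAR2 cells 26 were lower, and in siCoCoA against siCCAR2 cells 4 were higher.

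siZNF282 had arrays numbered 2 and 3 only, and array number 2 was high in other depletions, so the order was also read within same-numbered arrays. Within each of 4 such pairs, the median member was lower in siCoCoA than in siZNF282 cells by values of -1.58 to -0.82, with at most 5 members higher. The median was lower in siCCAR2 than in siZNF282 cells in 4 of 4 pairs (-1.55 to -0.78) and in siCCAR1 than in siZNF282 cells in 4 of 4 (-3.24 to -1.51). For siCoCoA against siCCAR1 cells the medians of 8 pairs ran from 0.77 to 1.83, with 33 to 35 members higher in each. For siCCAR1 against siCCAR2 cells they ran from -1.78 to -0.69. For siCoCoA against siCCAR2 cells they crossed 0, from -0.58 to 0.94.

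The members spread widely between arrays of 1 group. The median residual SD was 0.53 log2 units over the 35 members and 0.229 over all genes tested, and 29 members exceeded 0.343, the 90th percentile of all genes. IFI27 (1.02), IFITM1 (0.90) and MX1 (0.78) had the widest spread. The median SD within a group was 0.104 and 0.270 in siZNF282 dex and ethanol cells, 0.250 and 0.408 in siCoCoA, 0.680 and 0.814 in siCCAR2, 0.623 and 0.550 in siCCAR1 and 0.384 and 0.200 in siNS cells, against 0.141 to 0.231 for the median gene of the same groups. In siZNF282 dex cells the members' median SD was below that of the median gene.

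The members of an array deviated together. The array numbered 2 was above its group mean in 35 of 35 members in siCCAR1 dex, siCCAR2 dex and siCCAR2 ethanol cells, with median deviations of 0.91, 0.75 and 1.08. It was also above in 34 in siCCAR1 ethanol (0.76), 33 in siCoCoA dex (0.23) and 34 in siCoCoA ethanol cells (0.47). In siNS cells the array numbered 2 did not stand high, at -0.03 in dex and -0.11 in ethanol. There dex array 3 was above the mean in 34 members (0.51), while arrays 5 and 1 were low (-0.38 and -0.29). Median deviations over all genes stayed between -0.037 and 0.030 on every array. Without all arrays numbered 2, the calls against siNS in siCCAR1 ethanol cells numbered 14 and in siCCAR1 dex cells 24, and the counts of the other depletions stayed at 33 to 35, with 1 siZNF282 array left in each treatment.

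**Figure D4:**
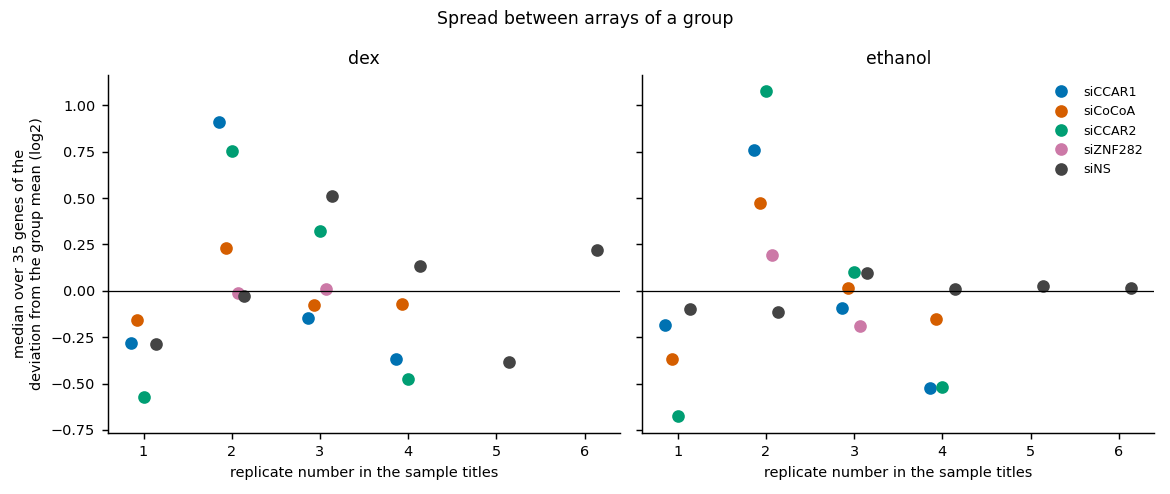
Median deviation of the 35 members from their group mean (log2 units) on each array, by replicate number, with dex left of ethanol. Array number 2 lies above 0 in the siCCAR1, siCoCoA and siCCAR2 groups, and siNS dex array 3 lies at 0.51.

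Dexamethasone is known for repressing inflammatory genes, and the next question was whether it moved these genes within each siRNA. In siCCAR1 cells 6 members rose with dex (EPSTI1, IFI6, IFI44L, UBE2L6, PARP9 and HELZ2, against 4.34% of all genes) and in siCoCoA cells 4 (EPSTI1, XAF1, RSAD2 and SP100, against 5.38%). In siCCAR2 cells EPSTI1 alone rose (6.47% of all genes), and in siZNF282 cells none (3.86%), where none had an unadjusted p below 0.05 either. In siNS cells 4 rose, against 7.71% of all genes. These were HELZ2 by 1.93 ± 0.26 (limma, adjusted p = 2.84e-07), EPSTI1 by 1.5 ± 0.23 (6.26e-06), IFI6 by 1.41 ± 0.33 (0.00177) and SP110 by 0.52 (0.0446). No member fell with dex in this fit, whereas 3.36%, 4.58%, 3.26% and 2.15% of all genes fell in siCCAR1, siCoCoA, siCCAR2 and siZNF282 cells and 8.63% in siNS cells. The median member differed by 0.75 in siCCAR1, 0.75 in siCoCoA, 0.31 in siCCAR2, -0.11 in siZNF282 and 0.21 in siNS cells, and the median gene by -0.028 to 0.012.

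These counts moved with single arrays. The 6 calls in siCCAR1 cells became 12 without ethanol array 2 and 1 without ethanol array 1, 3 or 4 or dex array 2. The 4 in siCoCoA cells became 1 without ethanol array 1 or 4 and 2 without ethanol array 3 or dex array 2, and the 1 in siCCAR2 cells became 2 without ethanol array 2. The 4 in siNS cells became 8 without dex array 1 and 7 without dex array 5.

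EPSTI1, an interferon-induced protein named for its response to stroma in breast epithelium, had 7.57, 7.94, 7.85 and 7.92 in siCoCoA dex cells against 6.04, 6.59, 6.15 and 6.03 in siCoCoA ethanol cells. In siCCAR2 cells it had 6.86, 7.94, 7.58 and 6.95 in dex against 5.09, 7.21, 6.18 and 5.48 in ethanol, and in siCCAR1 cells 6.16, 6.78, 6.42 and 6.24 against 4.91, 5.80, 4.76 and 4.67. Dex and ethanol arrays were apart in siCoCoA and siCCAR1 cells and overlapped in siCCAR2 cells. In siZNF282 cells it had 9.24 and 9.12 in dex against 9.14 and 8.64 in ethanol. siNS dex arrays had 5.63 to 6.68 with a median of 6.10, against 4.48 to 4.85 with a median of 4.59 on siNS ethanol arrays. The siNS groups did not overlap, and with ethanol below 5 throughout, the rise in siNS cells was at least 2.2-fold. The rise with dex was 1.62 ± 0.29, 1.34 ± 0.29 and 1.37 ± 0.29 in siCoCoA, siCCAR2 and siCCAR1 cells (limma, adjusted p = 9.46e-05, 0.00101 and 0.0010), and the 0.29 ± 0.41 in siZNF282 cells did not pass (0.802).

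HELZ2 had 11.65 and 11.90 in siZNF282 dex cells against 11.85 and 11.38 in siZNF282 ethanol cells. siCoCoA arrays had 10.55, 11.12, 11.01 and 11.17 in dex against 9.54, 10.46, 10.33 and 10.03 in ethanol, and siCCAR2 arrays 9.84, 10.98, 10.83 and 10.39 against 9.25, 11.19, 10.29 and 9.82. siCCAR1 arrays had 9.39, 10.14, 9.64 and 9.05 against 8.51, 9.28, 8.69 and 7.80. The groups overlapped in siZNF282, siCCAR2 and siCCAR1 cells and were apart in siCoCoA cells. In siNS cells HELZ2 had 7.69 to 8.92 with a median of 8.61 in dex against 6.23 to 6.77 with a median of 6.52 in ethanol, without overlap. The difference with dex was 0.16, 0.88, 0.37 and 0.98 in siZNF282, siCoCoA, siCCAR2 and siCCAR1 cells, of which that in siCCAR1 cells was called (limma, adjusted p = 0.0446).

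The dex response of HELZ2 minus that in siNS cells was -1.77 ± 0.51 in siZNF282 and -1.56 ± 0.40 in siCCAR2 cells, and neither difference passed the limma test over all genes (adjusted p = 0.164 and 0.194). No member passed it in any depletion. At an unadjusted p below 0.05, the response was higher for no member in siZNF282 (5.36% of all genes), 4 in siCoCoA (2.72%), none in siCCAR2 (4.66%) and 1 in siCCAR1 cells (1.79%). It was lower for 2 in siZNF282 (3.32%) and for 1 each in siCoCoA (2.22%), siCCAR2 (2.23%) and siCCAR1 cells (1.84%). After adjustment over all genes, 0.208% of responses differed in siZNF282, 0.00945% in siCoCoA, 0.0850% in siCCAR2 and 0.104% in siCCAR1 cells. The same values read the other way are the HELZ2 differences from siNS, 3.30 in dex against 5.07 in ethanol in siZNF282 cells and 2.03 against 3.59 in siCCAR2 cells.

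Dex and ethanol arrays with the same number deviated together in siCCAR1, siCoCoA, siCCAR2 and siNS cells, so the dex response was also fitted within pairs. More members then passed: 27 rose in siCoCoA (7.47% of all genes), 26 in siCCAR1 (6.11%), 13 in siNS (10.0%), 2 in siCCAR2 (8.38%) and none in siZNF282 cells (5.54%). IFI27 rose by 2.04 ± 0.40 in siCCAR1, 1.43 ± 0.40 in siCoCoA and 1.14 ± 0.33 in siNS cells (limma, adjusted p = 0.00115, 0.0175 and 0.0144). IFITM1 rose by 1.47 ± 0.26, 1.51 ± 0.26 and 0.64 ± 0.22 in the same cells (adjusted p = 4.71e-04, 3.08e-04 and 0.0384). ISG15 rose by 1.23 ± 0.27 in siCCAR1 and 1.04 ± 0.22 in siNS cells, and its 0.79 ± 0.27 in siCoCoA cells did not pass (adjusted p = 0.0575).

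LAMP3 joined EPSTI1 in siCCAR2 cells within pairs (1.07 ± 0.20, adjusted p = 6.13e-04), and GBP2 fell by 0.44 ± 0.12 in siCCAR2 cells (adjusted p = 0.0208), the one member called lower with dex. Over all genes 5.18% fell in siCCAR2 cells within pairs. The smaller dex response of HELZ2 was called within pairs in siZNF282 (adjusted p = 0.00355) and siCCAR2 cells (0.0012), and that of EPSTI1 in siZNF282 cells (-1.22 ± 0.25, 0.0272). The responses lower than in siNS made up 0.208% of all genes in siZNF282 and 0.0283% in siCCAR2 cells in that fit. For siZNF282 there were 2 pairs, so the pairing of its arrays rests on the other siRNAs.

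By pair, the median member was higher with dex in 4 of 4 siCCAR1 pairs (0.65 to 0.89) and 4 of 4 siCoCoA pairs (0.56 to 0.95). It was higher by 0.0019 to 0.42 in siCCAR2 pairs, stood at -0.20 and 0.16 in the siZNF282 pairs, and ran from -0.17 to 0.67 in the 6 siNS pairs. Dex arrays lay entirely above ethanol arrays for 22 members in siCoCoA cells (7.32% of all genes), 2 in siCCAR1 cells (7.20%), none in siCCAR2 cells (6.94%) and 3 in siNS cells (4.55%). In siZNF282 cells, with 2 arrays against 2, it was 3 members (22.2% of all genes), and 10 lay entirely below (20.1%).

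**Figure D5:**
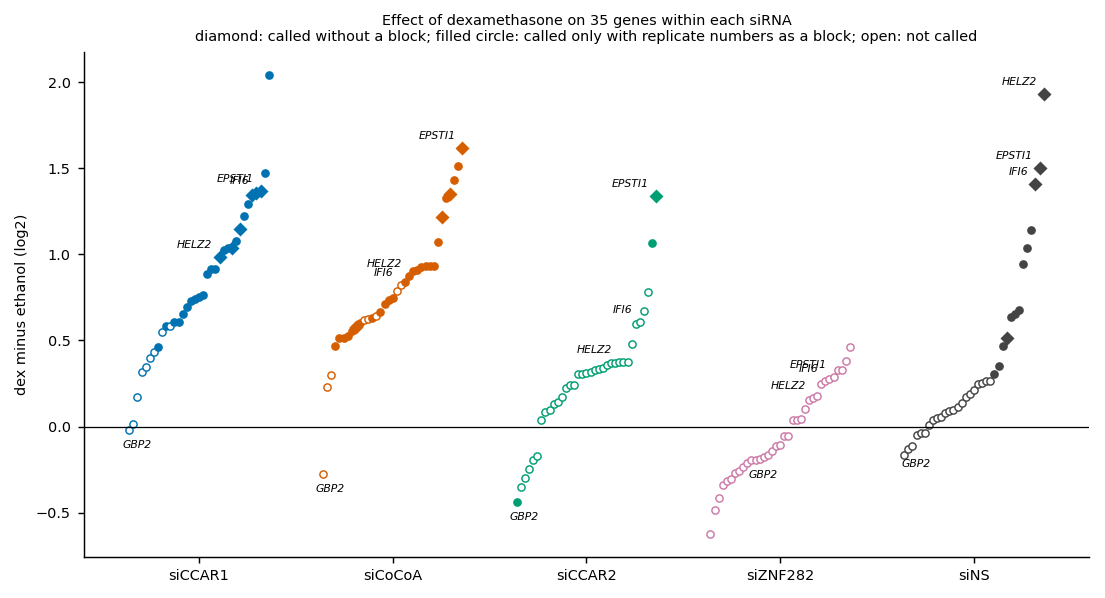
Dex minus ethanol (log2 units) of the 35 members, sorted within each siRNA. Diamonds mark members called in the fit without pairs, filled circles those called only within pairs of same-numbered arrays, and open circles the rest. Most members lie above 0 in siCCAR1 and siCoCoA cells, and siZNF282 members lie around 0.

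Other genes of the interferon pathway were read to place these effectors. Beside the counts below, 15.5% and 14.4% of all genes rose in siZNF282 cells in dex and ethanol, and 11% and 8.46% in siCoCoA cells. In siCCAR2 cells 10.6% and 7.27% rose, and in siCCAR1 cells 10.1% and 7.33%, while 8.91% fell in siCCAR1 dex cells. Of 6 IFIT and OAS genes with a testable probe, which bind viral RNA or make the messenger that activates RNase L, all 6 rose in siZNF282, siCoCoA and siCCAR2 cells in both treatments and 5 in siCCAR1 cells. IFIT2 was higher by 7.19 and 7.75 in siZNF282 cells in dex and ethanol. Of 8 RNA and DNA sensors, 7 and 6 rose in siZNF282 cells in dex and ethanol, 6 and 5 in siCoCoA cells, 7 and 5 in siCCAR2 cells, and 4 in siCCAR1 cells in either treatment. The RNA helicases IFIH1 and RIGI were higher by 4.78 and 4.50 in siZNF282 dex cells and by 1.75 and 1.73 in siCCAR1 dex cells. Of 9 tested genes for JAK kinases, their downstream transcription factors and SOCS inhibitors, 5 and 6 rose in siZNF282 cells in dex and ethanol. In siCoCoA cells 4 and 2 of them rose, in siCCAR2 cells 4 in each treatment, and in siCCAR1 cells 2 in each, with 1 lower in dex. The kinase JAK1 rose by 0.49 and 0.41 in siCCAR2 cells in dex and ethanol, and its differences of -0.02 and -0.17 in siZNF282 cells were not called. IRF7, the factor that amplifies interferon genes, was higher by 4.99, 3.75, 3.74 and 2.52 in siZNF282, siCoCoA, siCCAR2 and siCCAR1 dex cells. IRF9, which binds ISREs, was higher by 2.24, 2.06, 2.01 and 1.37. Of 13 genes of MHC class I presentation, 13 rose in siZNF282 cells in either treatment, and 8 and 3 in siCCAR1 cells in dex and ethanol. Among the genes counted here, OAS2, DHX58, TLR3 and NLRC5 lay below 5 on every siNS array. They were bright enough to test only through depleted groups, so the filter favoured their rises in these counts.

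The interferon genes IFNB1, IFNL1, IFNL2 and IFNL3 lay below 5 on every siNS array. IFNL1, a type III interferon, had 9.06 and 8.01 in siZNF282, 5.83, 6.27, 5.94 and 4.92 in siCoCoA, 5.41, 7.37, 5.69 and 5.34 in siCCAR2 cells and 4.47, 6.28, 4.87 and 4.68 in siCCAR1 dex cells, against 4.22 to 4.64 in siNS dex cells. IFNB1, the type I interferon of epithelial cells, had 7.57 and 6.99 in siZNF282, 6.05, 6.51, 5.60 and 4.69 in siCoCoA, 4.91, 6.29, 5.19 and 4.48 in siCCAR2 cells and 4.44, 4.86, 4.29 and 4.33 in siCCAR1 dex cells, against 4.26 to 4.59 in siNS dex cells. The array numbered 2 was the highest of its group for both genes in all 4 depletions in dex, as it was for most members in siCoCoA, siCCAR2 and siCCAR1 cells. In ethanol IFNB1 had 7.76 and 6.49 in siZNF282, 4.55, 5.36, 5.07 and 4.95 in siCoCoA and 4.88, 5.85, 4.39 and 4.65 in siCCAR2 cells, against 4.22 to 4.49 in siNS cells. IFNL1 had 8.68 and 6.84 in siZNF282 and 4.88, 6.65, 5.40 and 4.51 in siCCAR2 ethanol cells, against 4.25 to 4.58 in siNS cells. The siCoCoA arrays of IFNB1 thus lay above siNS in ethanol, though near background. IFNL1 had means of 4.59 in siCoCoA and 4.39 in siCCAR1 ethanol cells, against 4.41 in siNS ethanol cells. The IFNB1 mean in siCCAR1 ethanol cells was 4.40, against 4.33 in siNS ethanol cells.

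IFNL1 was called higher in siZNF282, siCoCoA and siCCAR2 dex cells, by at least 11.6-fold, 1.67-fold and 1.93-fold, and in siZNF282 ethanol cells by at least 6.78-fold. IFNB1 was called in the same comparisons, by at least 4.85-fold, 1.64-fold and 1.16-fold in dex and 4.37-fold in siZNF282 ethanol cells (limma, adjusted p = 7.47e-08, 8.66e-04, 0.0422 and 1.20e-07). IFNL1 and IFNB1 were bright enough to test only through depleted groups, so the filter favoured these calls. For probes this near background, a comparison that was not called says little. The part of interferon secretion in these rises was not tested.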

How the data were processed

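Total RNA of A549 cells was read on 40 Illumina arrays in 10 groups, taken from the labels. The deposited values are log2 intensities that the authors had normalized between arrays, and limma 3.14.4 is named in the submitters' processing notes. How they corrected background, normalized and filtered probes is not given in the sources used here. The log base was taken from their range, 4.13 to 14.3. Another table held 80 per-sample columns that no label pairs with a sample, and these were not used.

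Of 34469 probes, 26360 carried 1 gene symbol in GEO's platform annotation, 3 carried several and 8106 were unlisted. Each of 18353 genes was read from its brightest probe over all arrays. A gene was tested if a group mean exceeded 5, which left 10585 genes. One mean per group was fitted over all 40 arrays with lmFit and eBayes (limma 3.58.1, R 4.3.3; 30 residual and 5.86 prior degrees of freedom). The 23 comparisons were 2-sided, adjusted by Benjamini-Hochberg over all genes and called at an adjusted p below 0.05. On simulated data, most genes with differences planted in siCoCoA ethanol arrays were called. The simulated noise was independent between genes and arrays, so it does not cover members that deviate together on an array. Python 3.11.15, pandas 2.3.3 and matplotlib 3.10.9 made the motif scan and figures.

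The members and lists were chosen with earlier results of these data known. Members given array by array were those with the largest mean difference of each role, up to 4 called with dex, and the largest 2 in siZNF282 and siCCAR2 cells. The array values of GBP2, BST2, IFITM2 and RTP4 were added after their values were seen. Genes outside the members given with values were up to 4 per pathway list, by mean absolute difference. JAK1, the siRNA targets and the cell type markers were given outside that rule.

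Replicate numbers were taken to pair dex with ethanol arrays of an siRNA where every same-numbered pair had deviations correlated above 0.1, which held in siCCAR1, siCoCoA, siCCAR2 and siNS cells. In dex it also held among siCoCoA, siCCAR2 and siCCAR1, between siCoCoA and siNS and between siCCAR2 and siNS. With 2 pairs in each comparison, it held in dex between siZNF282 and every other siRNA too, with correlations from 0.135 to 0.256. Over 48 pairs that exclude those between depletions, correlations ran from -0.023 to 0.47, and 39 exceeded 0.1. Alternatives covered the filter, the probe, quantile normalization, array weights, the prior variance, the arrays in the fit and each array left out.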

Additional observations from a re-analysis of the deposited data

Results flagged for a closer look

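Among the 96 groups of at least 4 arrays that the 12 members given array by array make up, 8 held 1 array whose gap to the nearest other exceeded Dixon's critical value. Chance flags about 1 in 20 such groups where groups are independent. Members read on the same arrays deviate together, so these flags are not independent and the count cannot be set against that rate. Of the 8 flags, 7 were on arrays numbered 2. In siCCAR1 dex cells array 2 stood high for ISG15 (13, the others 11.7 to 11.8), IFI27 (12.4, the others 9.59 to 9.62), PARP9 (10.2, the others 9.49 to 9.54) and LAMP3 (8.68, the others 6.50 to 6.58). In siCCAR1 ethanol cells it stood high for IFI27 (10.1, the others 7.44 to 7.79) and SP110 (8.75, the others 8.01 to 8.05). In siCoCoA dex cells array 2 stood high for MX1 (13.6, the others 13.1 to 13.2). The last was RSAD2 on siNS ethanol array 1 (4.86, the others 4.40 to 4.57), where all values were near background. The groups of siZNF282, with 2 arrays each, could not be examined in this way.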

How the results depend on the processing

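Against siNS, the number of members called higher stayed within 1.5 times its value in every depletion and every alternative run, except that siCCAR1 in ethanol gave 12 in place of 20 with replicate numbers 2 and 3 only. Leaving out each array in turn gave 14 to 19 in siCCAR1 ethanol, 22 to 27 in siCCAR1 dex, 33 to 34 in siCoCoA ethanol, 35 in siCoCoA dex, 33 in siCCAR2 and 35 in siZNF282 cells. The dex counts moved most. The replicate block gave 15 in siCCAR1 (6 without it), 17 in siCoCoA (4), 3 in siCCAR2 (1), 0 in siZNF282 (0) and 8 in siNS cells (4). The block within each siRNA gave 26, 27, 3, 0 and 13 in the same order. A fit of only the groups compared gave 2 in siCCAR1, 22 in siCoCoA and 0 in siCCAR2 cells, numbers 2 and 3 only gave 0, 1 and 0, and leaving out all arrays numbered 2 gave 10, 12 and 2. Array weights gave 8 in siNS cells. Without 1 array the dex counts ran from 1 to 12 in siCCAR1, 1 to 5 in siCoCoA, 1 to 2 in siCCAR2 and 3 to 8 in siNS cells. For the difference in dex response the replicate block gave 1 in siCCAR2 and 1 in siZNF282 cells (0 without it), the block within each siRNA 1 and 2, and leaving out 1 array 0 to 1 in siCCAR2 cells. Between depletions, the 5 calls of siCoCoA over siCCAR2 became 11 with the replicate block (8 higher, 3 lower), 8 with array weights, 3 with numbers 2 and 3 only, 10 without arrays numbered 2 and 4 to 10 without 1 array. Same-numbered arrays of siCoCoA, siCCAR2 and siCCAR1 cells deviated together (r above 0.1) in every pair in dex and in most in ethanol. Without 1 array, the other pairs gave 33 to 35 (siCoCoA over siCCAR1), 25 to 32 (siCoCoA and siZNF282), 30 to 33 (siCCAR1 and siCCAR2), 35 (siCCAR1 and siZNF282) and 30 to 34 (siCCAR2 and siZNF282). Of 438 called results of single members, 404 passed in all alternatives chosen beforehand other than leaving out arrays, 34 lost the call in at least 1, 36 lost it without 1 array, 60 with numbers 2 and 3 only, and 0 changed sign. Apart from fits with fewer arrays or genes, the cause of these shifts was not tested. The start from non-normalized signals was not run, since their columns could not be tied to samples. The limits of the arrays are the background line, below which falls and small rises of dim members cannot be read, and the 2 siZNF282 arrays per treatment.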
